A study of Mus musculus with 12 samples.

Results

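The 41 genes described here take up, activate, store and burn long-chain fatty acids in the heart, or switch those steps on. They were listed by known function, with earlier results of these data known, and all 41 were matched to an identifier among the 38293 genes of both count tables. The data were RNA-seq gene counts from left ventricles of C57BL/6J mice, in 4 groups of 3 libraries. Wild-type mice had sham surgery (WT sham) or temporary closure of a coronary artery followed by reperfusion (ischaemia-reperfusion, WT IR). In a separate table, wild-type littermates (Zeb2 WT IR) and mice labelled as overexpressing the transcription factor ZEB2 (Zeb2 cTg IR) both underwent the same injury. All injured hearts were taken 14 days after injury. The mice were 8 to 9 weeks old. The Zeb2 cTg line carries a Zeb2 transgene in the Rosa26 locus behind a loxP-flanked stop, which a Cre driven by the murine Myh6 promoter removes in cardiomyocytes, so other cell types are not targeted. Whether the littermates carried Cre is not given in the sources used here. The series text describes tissue of the infarct area plus border zone, whereas the methods also name remote zones, so the exact part of the ventricle is uncertain.

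The adult heart draws most of its ATP from fatty acids. They are freed from lipoproteins by lipoprotein lipase, enter the cardiomyocyte through CD36 and fatty acid transport proteins, are activated to acyl-CoA, and cross into the mitochondrion as acylcarnitines, where each turn of beta-oxidation removes an acetyl unit. The nuclear receptors PPARα, PPARδ and the oestrogen-related receptors (ERRs), with the coactivators PGC-1α and PGC-1β, drive transcription of these enzymes, and injured hearts are known for a turn from fatty acids towards glucose.

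The targeted gene was examined first. Zeb2 was at 54.7, 57.8 and 67.03 CPM (counts scaled to a library of 1000000) in the 3 Zeb2 WT IR libraries and at 55.5, 56.9 and 58.7 CPM in the 3 libraries labelled Zeb2 cTg IR, called the cTg-labelled libraries below (log2 fold change -0.069 ± 0.12 SE, adjusted p = 0.75). The groups overlapped, so the label was not borne out by the Zeb2 counts. Whether reads of the transgene could be counted under Zeb2 is not given in the sources used here, and every direction given below for that comparison is one between libraries as labelled. Defining cardiomyocyte markers were abundant in all 12 libraries (their 22 genes together made up 54081 to 81766 CPM). Adipocyte-defining transcripts, a possible source of lipid genes from adherent fat, were at or near 0: Adipoq, Plin1, Lep, Cfd and Retn each stayed at or under 0.227 CPM in every library, and only Fabp4, which heart endothelium also expresses, had enough counts to test. Ucp1 of brown fat reached at most 0.056 CPM. Library totals ran from 20215781 to 36816818 counts, of which 60.6% to 73.5% fell on the mitochondrial genome, and 1 CPM corresponded to 17.2 to 37.8 counts.

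CPM here are counts divided by library sizes scaled with the trimmed mean of M-values (TMM) over all genes. They say how a gene differs between libraries of a table. For levels between genes they were divided by the length of the principal transcript in kilobases. On that per-length scale Lpl was the most abundant member in WT sham, with 487 ± 8.303 CPM per kilobase (SD, n = 3), followed by Cd36 with 237 ± 7.74. Acaa2 (167 ± 4.28) and Fabp3 (167 ± 8.56) came next and did not differ beyond their spread. The next were Acadl (138 ± 6.197) and Acadvl (131 ± 8.27), which likewise lay within their spread. Acot1 was the lowest at 1.42 ± 0.230, and Ppard (1.96 ± 0.149) stood just above it. Cpt1b, usually named as the main isoform of heart muscle, reached 2.54 ± 0.182 CPM per kilobase against 6.32 ± 0.777 for Cpt1a. The Cpt1b value is uncertain: the GENCODE M21 annotation, used here for symbols, places a read-through gene, Gm44502, over the whole of Cpt1b on the same strand. That gene is not among those counted here. The methods name another GENCODE release for the counts, and whether overlapping annotation in it took reads from Cpt1b was not tested.

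The first comparison asks how the fatty acid programme stood in the ventricle 14 days after reperfusion. Of the 41 members, all of which passed the filter on low counts, 23 were lower in WT IR than in WT sham, 1 was higher (Cpt1a) and 17 did not pass (edgeR quasi-likelihood test, Benjamini-Hochberg adjusted p under 0.05 over 13756 genes). Of all genes tested, 9.74% were lower and 11.0% higher. The members' median log2 fold change was -0.44, with a range from -1.06 (Acot1) to 0.47 (Cpt1a), beside a median of 0.0064 over all genes. Log2 fold changes lay below 0 for 38 members. In 31 members every WT IR library was below every WT sham library, which held for 19.3% of all genes, and in 1, Cpt1a, every WT IR library was above, against 20.5%.

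**Figure D1:**
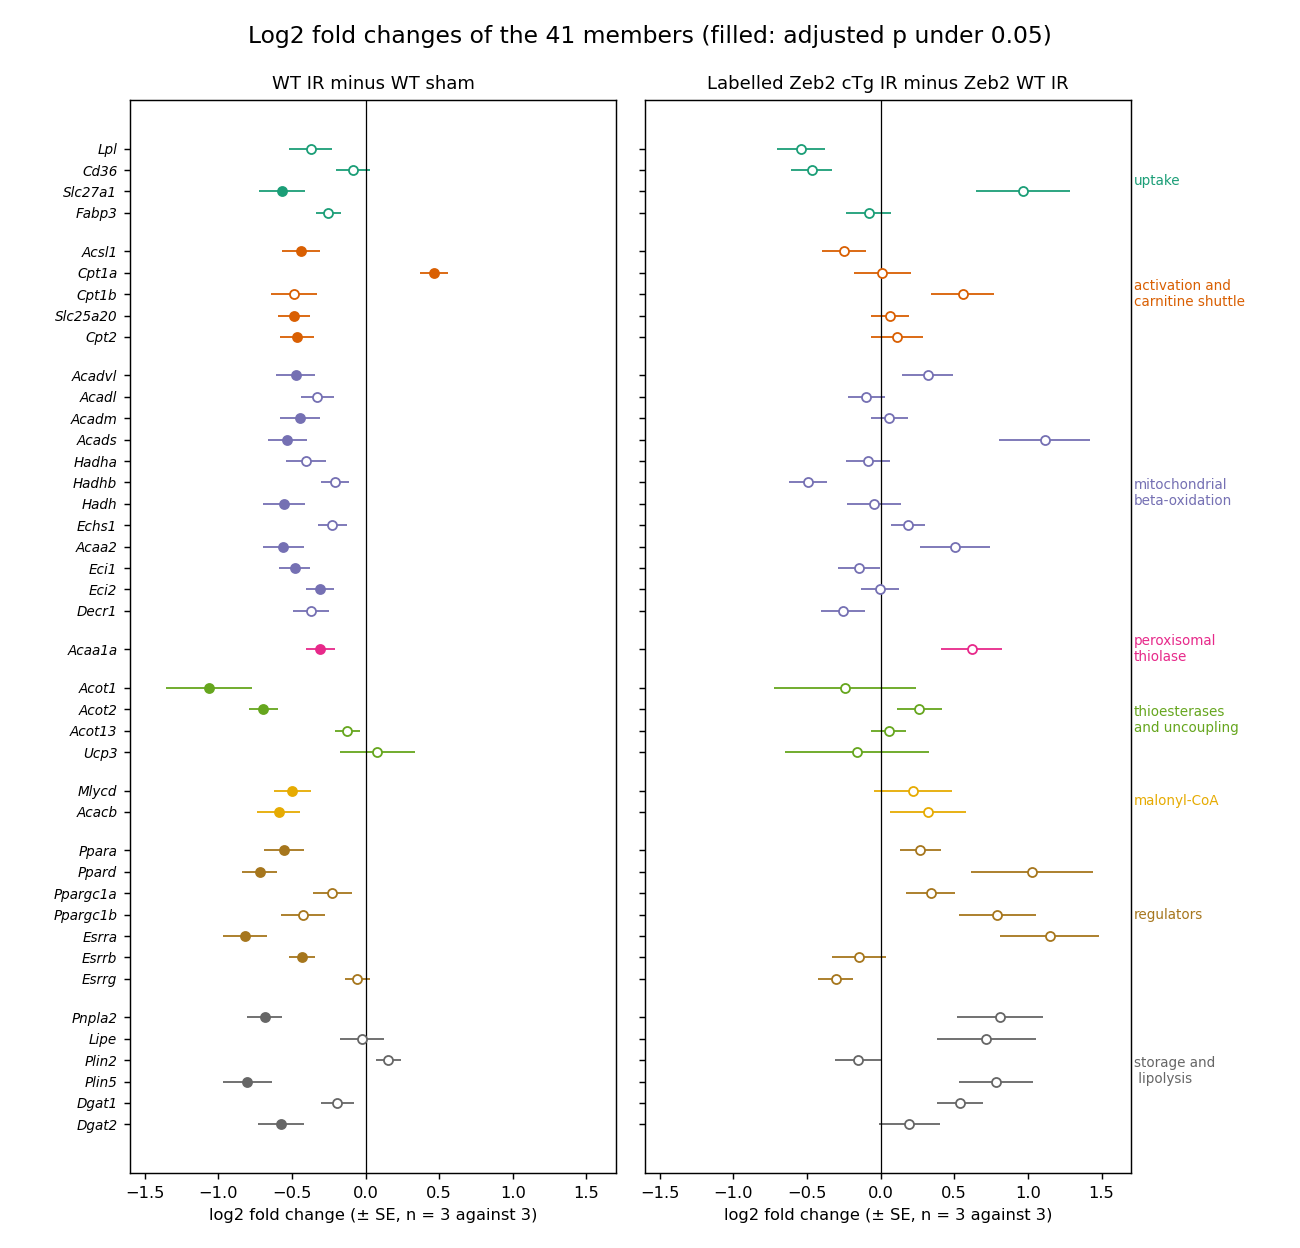
Log2 fold change (x axis) of each of the 41 members (y axis, grouped and coloured by role) with its standard error, for WT IR minus WT sham on the left and the cTg-labelled libraries minus Zeb2 WT IR on the right; filled points have an adjusted p under 0.05. On the left 23 filled points lie below 0 and only Cpt1a above it, whereas on the right no point is filled.

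Added over the 41 members, the level was 6665, 6662 and 6668 CPM in the 3 WT sham libraries and 6122, 5032 and 4420.0 CPM in the 3 WT IR libraries. The sham hearts were nearly alike, while the injured hearts spread out, and WT IR replicate 1 stayed closest to sham. Marker levels of several cell types moved in the same libraries. The 22 cardiomyocyte markers summed to 74580.1, 76922 and 69773 CPM in WT sham and 69582, 59076 and 54081 CPM in WT IR, and 5 of them were lower, among them Myl3, Tnni3, Ldb3 and Ryr2. Fibroblast markers, of which 9 of 10 were higher, summed to 1002, 552 and 631 CPM in WT sham and 1973, 3191 and 4949 CPM in WT IR. Macrophage markers, again with 9 of 10 higher, summed to 182, 167 and 186 and 241, 378 and 460.5 CPM. In each of these 4 sums WT IR replicate 1 was nearest to sham and replicate 3 farthest. In tissue RNA fewer cardiomyocytes and less of a transcript per cardiomyocyte cannot be told apart.

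**Figure D2:**
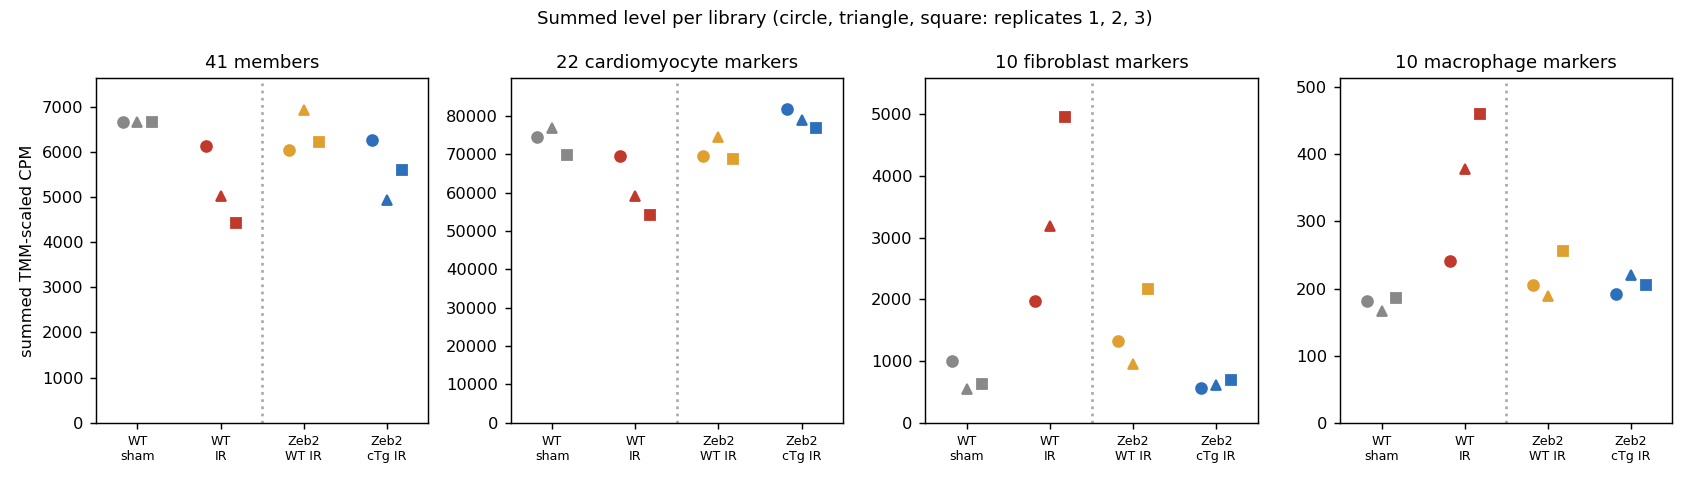
Summed TMM-scaled CPM (y axis) in each library of the 4 groups (x axis) for the members and for 3 marker lists; the dotted line separates the 2 tables, which were scaled separately. From WT sham to WT IR the member and cardiomyocyte sums fall and the fibroblast and macrophage sums rise, each least in WT IR replicate 1 (circle).

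A scaling on the cardiomyocyte markers themselves was therefore set beside the TMM scaling. With the summed counts of the 22 markers as library size, of which Ttn held 52.3% to 56.1%, the median over all genes rose to 0.29 and the split of calls over all genes went from 1519 higher and 1340 lower to 2898 higher and 224 lower. The members' median became -0.17. Such a scaling shifts all genes of a library alike, so the distance of the members to the other genes is fixed by construction. Relative to cardiomyocyte markers 6 members stayed lower, beside 1.63% of all genes, and Cpt1a stayed higher, beside 21.1%. The 6 were Acot1 (-0.80 on the log2 scale), Plin5 (-0.54), Esrra (-0.54), Acot2 (-0.42), Pnpla2 (-0.41) and Acacb (-0.32). The other 17 lower calls were lost under this scaling.

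**Figure D3:**
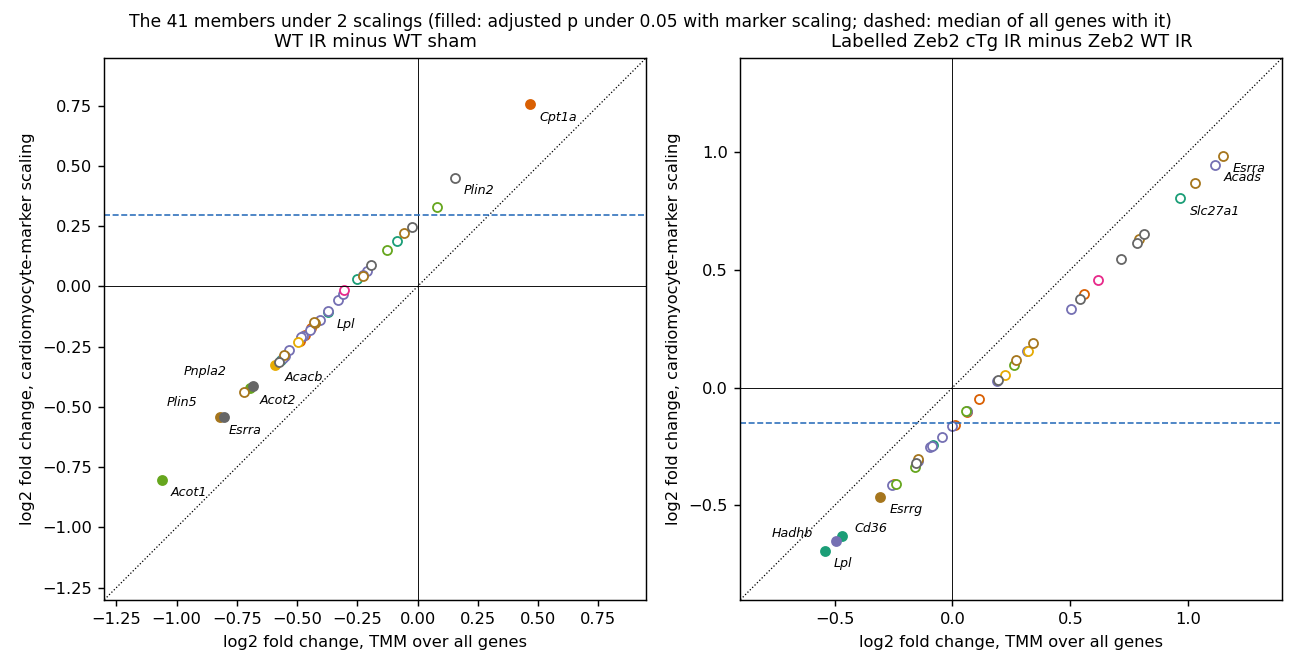
Log2 fold change of the 41 members with TMM scaling (x axis) and with scaling on the summed counts of 22 cardiomyocyte markers (y axis), for both comparisons; filled points have an adjusted p under 0.05 under the marker scaling, the dotted line marks equal values and the dashed line the median of all genes under the marker scaling. On the left all points sit above the dotted line and 6 lower members and Cpt1a stay filled; on the right all sit below it and Lpl, Cd36, Hadhb and Esrrg are filled.

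Promoter sequences are given for 4 members: Cpt1a, the one that rose, and Acot2, Esrra and Pnpla2, 3 of those that fell, chosen after their values were seen. All 4 hold a match to a motif searched below. The promoter of Ppard, which was also lower, holds none and is not shown. RefSeq promoters (GRCm38.p6, 250 bases before to 50 bases after each start) were on hand for 33 of the 41 members and for 27025 genes in all. The motifs searched, on both strands, were AGGTCA, the half-site read by PPARs and other nuclear receptors, its direct repeat AGGTCANAGGTCA, the ERR element TCAAGGTCA, and CACCTG, an E2-box of the kind that ZEB2 binds. AGGTCA is contained in the 2 longer nuclear receptor motifs. AGGTCA occurred in promoters of 9 of 33 members (27.3%) and of 18.1% of all genes. CACCTG occurred in 12 of 33 members (36.4%) and in 22.6% of all genes. No member promoter held the direct repeat or the ERR element, which 0.0481% and 0.466% of all genes had. A match of letters is no evidence of binding, and the lack of one says only that the letters are not in these windows. Capitals mark AGGTCA, on the minus strand of the window as its reverse complement, in Cpt1a, and CACCTG or its reverse complement in the others.
Cpt1a (chr19:3323051-3323350, plus strand): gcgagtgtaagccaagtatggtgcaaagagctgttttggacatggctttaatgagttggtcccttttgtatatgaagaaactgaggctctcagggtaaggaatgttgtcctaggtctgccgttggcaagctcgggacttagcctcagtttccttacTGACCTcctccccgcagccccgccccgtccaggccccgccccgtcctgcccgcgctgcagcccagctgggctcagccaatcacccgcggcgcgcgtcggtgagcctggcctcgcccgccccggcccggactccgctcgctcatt
Acot2 (chr12:83987611-83987910, plus strand): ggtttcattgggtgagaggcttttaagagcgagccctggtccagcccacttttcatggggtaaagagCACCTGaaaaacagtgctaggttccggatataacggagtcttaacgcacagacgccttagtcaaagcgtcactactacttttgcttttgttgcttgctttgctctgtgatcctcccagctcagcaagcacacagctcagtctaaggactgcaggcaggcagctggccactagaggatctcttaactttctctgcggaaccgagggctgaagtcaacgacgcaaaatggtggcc
Esrra (chr19:6921759-6922058, minus strand): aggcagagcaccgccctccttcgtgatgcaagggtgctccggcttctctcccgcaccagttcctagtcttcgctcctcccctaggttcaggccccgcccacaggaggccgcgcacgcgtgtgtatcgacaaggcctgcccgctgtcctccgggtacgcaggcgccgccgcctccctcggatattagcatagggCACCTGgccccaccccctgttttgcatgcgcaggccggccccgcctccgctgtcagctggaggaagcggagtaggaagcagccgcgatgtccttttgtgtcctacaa
Pnpla2 (chr7:141454938-141455237, plus strand): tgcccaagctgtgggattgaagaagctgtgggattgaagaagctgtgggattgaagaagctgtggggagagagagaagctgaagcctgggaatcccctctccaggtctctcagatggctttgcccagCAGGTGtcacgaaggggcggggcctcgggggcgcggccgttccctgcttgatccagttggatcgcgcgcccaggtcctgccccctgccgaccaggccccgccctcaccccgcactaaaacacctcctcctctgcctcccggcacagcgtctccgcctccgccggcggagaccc

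Values below are given for replicates 1, 2 and 3 in that order, the sham libraries before the injured ones. Of the 4 uptake genes 1 passed. Slc27a1, a fatty acid transport protein, was at 33.2, 37.8 and 33.9 CPM in WT sham and at 30.2, 22.4 and 18.1 CPM in WT IR (log2 fold change -0.57 ± 0.16 SE, adjusted p = 0.0325). Its groups did not overlap. Cd36, the main fatty acid translocase, was at 778, 808 and 830.2 CPM in WT sham and 859, 751 and 667 CPM in WT IR (log2 fold change -0.086 ± 0.12 SE, adjusted p = 0.637). WT IR replicate 1 exceeded all sham hearts and replicates 2 and 3 lay below them, so the groups overlapped. Fabp3, the cytosolic fatty acid-binding protein of heart muscle, was at 145, 134 and 132 CPM in WT sham and 125, 110.2 and 110.1 CPM in WT IR (log2 fold change -0.25 ± 0.086 SE, adjusted p = 0.066). Its WT IR values all lay below sham without passing the test, and Lpl likewise did not pass (log2 fold change -0.37, adjusted p = 0.0955).

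The carnitine shuttle moved in both directions. Cpt1a, the liver-type carnitine palmitoyltransferase of the outer mitochondrial membrane, which non-muscle cells also express, was at 30.5, 23.8 and 27.5 CPM in WT sham and at 36.7, 38.2 and 38.1 CPM in WT IR (log2 fold change 0.47 ± 0.094 SE, adjusted p = 0.0112). It rose 1.38-fold, and the 3 injured hearts were close to each other and all above sham. Cpt1b, the muscle-type enzyme for the same step, was at 6.77, 7.48 and 7.799 CPM in WT sham and at 6.44, 5.05 and 4.14 CPM in WT IR (log2 fold change -0.49 ± 0.16 SE, adjusted p = 0.0523). Every injured heart was below every sham heart, but the test was narrowly missed. Counted within each library, which needs no scaling, Cpt1a counts were 4.503, 3.18 and 3.53 times those of Cpt1b in WT sham. In WT IR they were 5.69, 7.55 and 9.21 times those of Cpt1b. These ratios are not divided by transcript length (4317 bases for Cpt1a, 2895 for Cpt1b), and the Cpt1b counts are uncertain, as said above. The ratio was thus higher in all 3 injured hearts, although an exact two-sided permutation test of 3 against 3 libraries cannot go below 0.1. Without WT sham replicate 2 or without WT IR replicate 2, Cpt1a no longer passed (adjusted p = 0.0685 and 0.0512). Fibroblast and macrophage markers rose in the same hearts, and their part in the Cpt1a value was not tested.

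**Figure D4:**
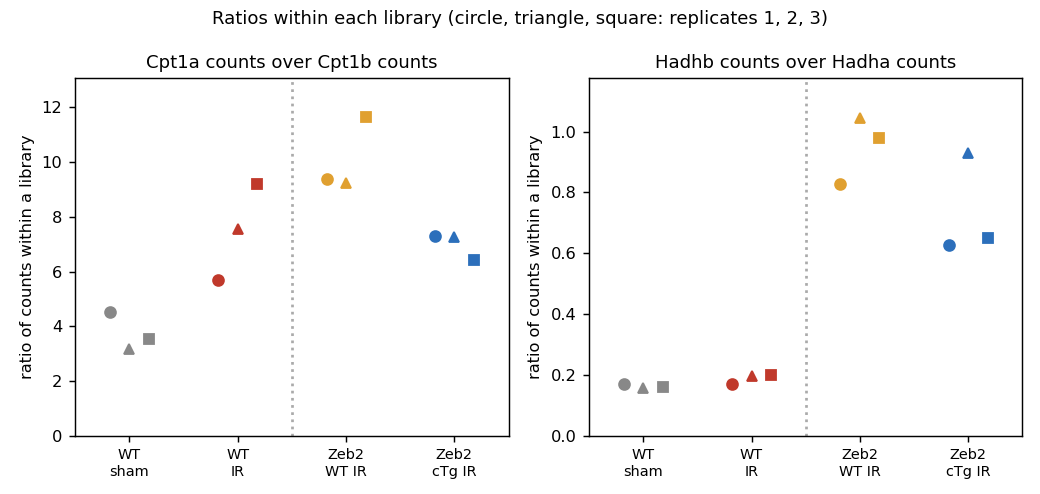
Ratio of counts within each library, not divided by transcript length (y axis), for Cpt1a over Cpt1b and for Hadhb over Hadha in the 4 groups (x axis). Symbols mark replicates and the dotted line separates the 2 tables. Cpt1a over Cpt1b is higher in every WT IR library than in every WT sham library, and Hadhb over Hadha sits under 0.2 in the first table and over 0.6 in the second.

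The remaining steps into the mitochondrion were lower. Slc25a20, the carnitine-acylcarnitine translocase of the inner membrane, was at 57.01, 63.6 and 65.7 CPM in WT sham and 51.8, 42.2 and 38.9 CPM in WT IR (log2 fold change -0.49 ± 0.11 SE, adjusted p = 0.017). Cpt2, which turns acylcarnitine back into acyl-CoA in the matrix, was at 75.6, 78.1 and 83.5 CPM in WT sham and 67.5, 55.1 and 48.7 CPM in WT IR (log2 fold change -0.47 ± 0.12 SE, adjusted p = 0.0218). Neither gene's groups overlapped. Acsl1, the main acyl-CoA synthetase of the heart, was also lower (log2 fold change -0.44, adjusted p = 0.0391).

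All 12 genes of mitochondrial beta-oxidation had a log2 fold change below 0, from -0.56 to -0.21, and 7 passed. Acadvl, the dehydrogenase for very long chains, was at 296, 294 and 264 CPM in WT sham and 251, 188 and 176 CPM in WT IR (log2 fold change -0.47 ± 0.13 SE, adjusted p = 0.0348). Acadm, for medium chains, was at 236, 256 and 245 CPM and 223, 168 and 151 CPM (log2 fold change -0.44 ± 0.14 SE, adjusted p = 0.045). Acads, for short chains, was at 55.5, 56.8 and 57.04 CPM and 48.5, 32.5 and 36.2 CPM (log2 fold change -0.53 ± 0.13 SE, adjusted p = 0.022). Acadl, for long chains, had the same direction but did not pass (log2 fold change -0.33, adjusted p = 0.0629). Every WT IR library was below every WT sham library for Acadl, and it passed as lower in 4 of 10 other settings. Hadha, the alpha subunit of the trifunctional protein that carries out the later steps on long chains, was at 507, 501 and 510.5 CPM in WT sham and 465, 364 and 317 CPM in WT IR (log2 fold change -0.41 ± 0.14 SE, adjusted p = 0.0613). It did not pass although the groups did not overlap.

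Hadh, the short-chain 3-hydroxyacyl-CoA dehydrogenase, was at 182, 194 and 208 CPM in WT sham and 166, 123 and 109.6 CPM in WT IR (log2 fold change -0.55 ± 0.14 SE, adjusted p = 0.0253). Acaa2, the thiolase that closes the cycle, was at 247, 260.3 and 252 CPM and 215, 161 and 140.0 CPM (log2 fold change -0.56 ± 0.14 SE, adjusted p = 0.0242). Eci1, an isomerase needed for unsaturated fatty acids, was at 69.6, 75.9 and 70.1 CPM and 59.4, 49.8 and 45.2 CPM (log2 fold change -0.48 ± 0.10 SE, adjusted p = 0.0139). In these 3 genes WT IR replicate 1 lay between the sham hearts and the other two injured hearts. Eci2 (log2 fold change -0.31, adjusted p = 0.0452) and the peroxisomal thiolase Acaa1a (log2 fold change -0.31, adjusted p = 0.0493) passed narrowly, and Acaa1a passed in 2 of 10 other settings. Hadhb, Echs1 and Decr1 did not pass (log2 fold changes -0.21, -0.23 and -0.37).

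Acyl-CoA thioesterases, which release free fatty acids from acyl-CoA and are classic PPARα targets, included the member with the largest decrease, Acot1. Acot2, the mitochondrial enzyme, was at 26.2, 26.2 and 27.7 CPM in WT sham and 18.8, 15.3 and 15.3 CPM in WT IR (log2 fold change -0.69 ± 0.10 SE, adjusted p = 0.00391). It fell by 38.2% and had the smallest p of all members. Acot1, its cytosolic neighbour on chromosome 12 and a close paralogue, whose shared reads may be split or lost, was at 3.06, 3.802 and 2.79 CPM and 2.44, 1.22 and 1.01 CPM (log2 fold change -1.06 ± 0.29 SE, adjusted p = 0.0321). It fell by 52.1%, from a low level and with a wide error, and with single libraries removed it kept its call 1 time in 6. Ucp3, a mitochondrial uncoupling protein, was at 23.8, 11.6 and 19.7 CPM and 22.97, 21.1 and 13.5 CPM (log2 fold change 0.08 ± 0.25 SE, adjusted p = 0.851), with full overlap of the groups, and Acot13 did not pass (-0.13 on the log2 scale).

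Both members that set malonyl-CoA, the inhibitor of CPT1, were lower. Acacb, the acetyl-CoA carboxylase that makes it at the outer mitochondrial membrane, was at 231, 220.2 and 199 CPM in WT sham and 179.7, 133 and 119 CPM in WT IR (log2 fold change -0.59 ± 0.14 SE, adjusted p = 0.0214). Mlycd, the decarboxylase that removes it, was at 30.4, 31.8 and 29.2 CPM and 26.2, 20.5 and 18.05 CPM (log2 fold change -0.50 ± 0.12 SE, adjusted p = 0.0229). The transcripts of the maker and the remover of malonyl-CoA thus both fell under TMM scaling. Scaled on the cardiomyocyte markers, Acacb kept its call and Mlycd lost it. Acaca, the cytosolic carboxylase of lipogenesis and no member, was higher, at 4.804, 4.45 and 4.54 CPM in WT sham and 5.56, 6.32 and 5.85 CPM in WT IR (log2 fold change 0.36 ± 0.11 SE, adjusted p = 0.043).

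Of the 7 regulators 4 were lower. Esrra, which encodes ERRα, was at 34.3, 33.5 and 26.8 CPM in WT sham and 22.2, 15.1 and 16.6 CPM in WT IR (log2 fold change -0.82 ± 0.15 SE, adjusted p = 0.00797). It fell by 43.4% and the groups did not overlap. Ppara was at 26.6, 26.4 and 23.7 CPM and 21.7, 15.3 and 15.3 CPM (log2 fold change -0.56 ± 0.14 SE, adjusted p = 0.0209). Ppard was at 6.96, 6.35 and 5.99 CPM and 4.34, 3.65 and 3.77 CPM (log2 fold change -0.72 ± 0.12 SE, adjusted p = 0.00651). Esrrb was at 12.1, 10.9 and 11.5 CPM and 9.03, 8.39 and 8.17 CPM (log2 fold change -0.43 ± 0.089 SE, adjusted p = 0.0122). In each of these receptors every injured heart was below every sham heart. The coactivator Ppargc1a, which encodes PGC-1α, was at 77.4, 68.5 and 68.5 CPM in WT sham and 75.6, 53.2 and 54.7 CPM in WT IR (log2 fold change -0.22 ± 0.13 SE, adjusted p = 0.251), with WT IR replicate 1 among the sham values. Ppargc1b (log2 fold change -0.42, adjusted p = 0.0675) and Esrrg (log2 fold change -0.056, adjusted p = 0.678) did not pass either. Esrra overlaps Trmt112 on the opposite strand, and Fabp3, Acadvl, Hadha, Echs1 and Acaa1a likewise overlap protein-coding genes there. Acadl overlaps a processed pseudogene on its own strand. Whether counting used strand is not given in the sources used here.

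Among the 6 storage and lipolysis genes 3 passed, all of them lower. Pnpla2, the triglyceride lipase ATGL that starts lipolysis, was at 67.9, 70.3 and 64.7 CPM in WT sham and 49.3, 42.5 and 34.4 CPM in WT IR (log2 fold change -0.68 ± 0.12 SE, adjusted p = 0.00734). Plin5, the perilipin that holds droplets against mitochondria, was at 37.9, 40.2 and 36.96 CPM and 29.5, 17.96 and 18.6 CPM (log2 fold change -0.80 ± 0.17 SE, adjusted p = 0.0126). Dgat2, which adds the last acyl chain of triglyceride, was at 100.4, 90.4 and 90.2 CPM and 81.4, 56.2 and 50.98 CPM (log2 fold change -0.57 ± 0.16 SE, adjusted p = 0.03). All 3 fell without overlap of the groups. Plin2, the general droplet coat, was at 20.3, 18.1 and 19.03 CPM in WT sham and 19.6, 22.2 and 22.04 CPM in WT IR (log2 fold change 0.16 ± 0.085 SE, adjusted p = 0.217). Its groups overlapped. Lipe and Dgat1 had values of -0.024 and -0.19 on the log2 scale and did not pass.

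**Figure D5:**
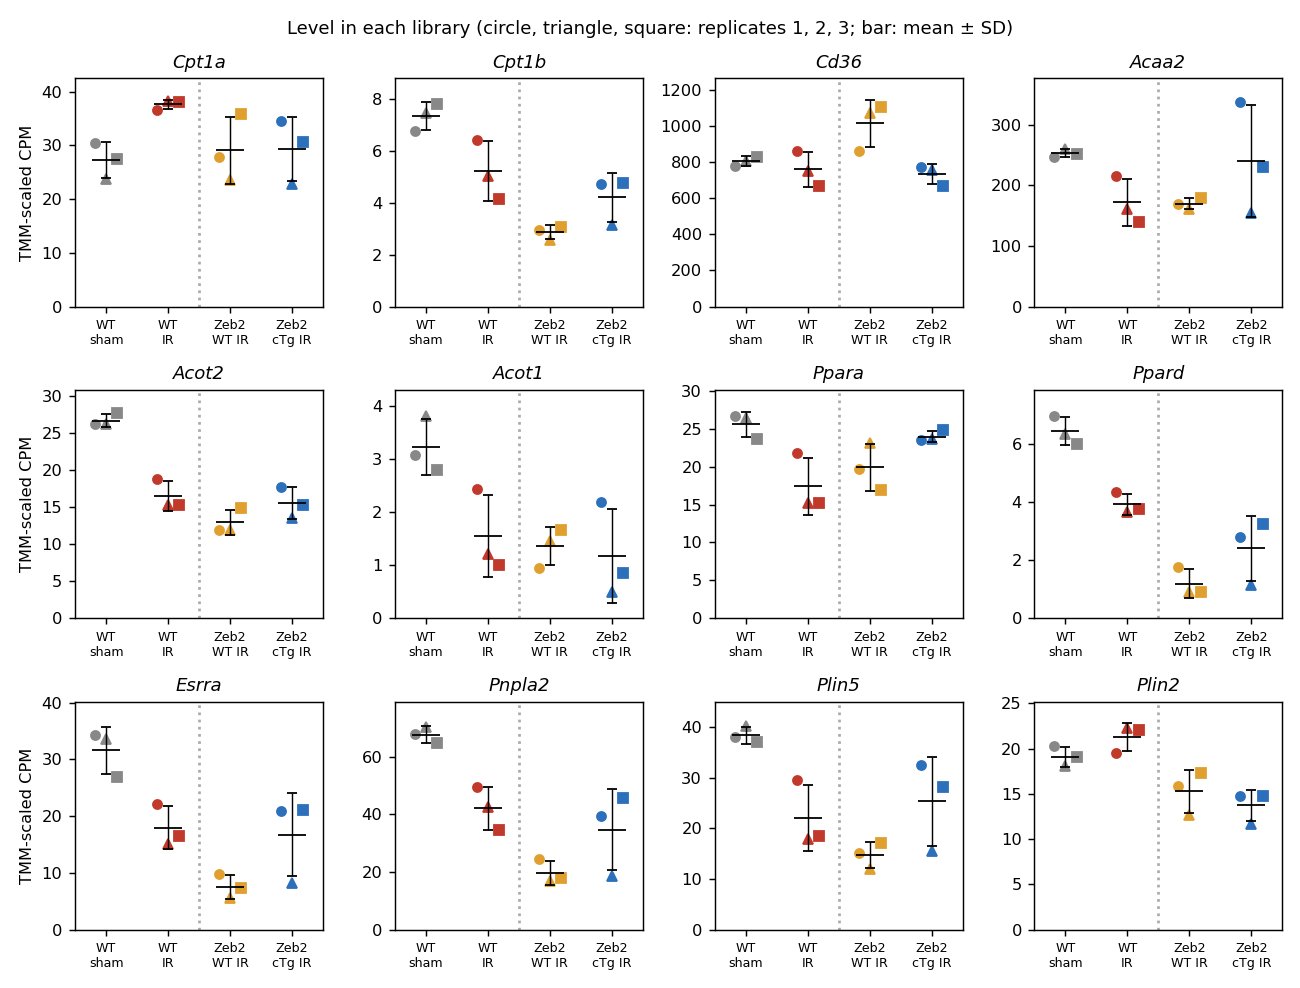
TMM-scaled CPM (y axis, from 0) of 12 members in each library of the 4 groups (x axis); circles, triangles and squares are replicates 1, 2 and 3, bars the mean ± SD, and the dotted line separates the tables. Cpt1a is the only one of them with all WT IR libraries above WT sham, and in Esrra, Pnpla2 and Plin5 replicate 2 labelled Zeb2 cTg IR (blue triangle) sits with the Zeb2 WT IR libraries.

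The calls rested on single libraries to differing degrees. Leaving out 1 library at a time gave between 2 and 33 lower members. It was 2 without WT sham replicate 2 (1.41% of all genes lower), 4 without WT IR replicate 2 (2.55%), 7 and 9 without WT sham replicates 1 and 3 (3.87% and 5.14%), 16 without WT IR replicate 3 (6.09%) and 33 without WT IR replicate 1 (17.6%). The lower calls over all genes thus moved in the same order as those of the members. Acot2 and Ppard passed in all 6 of these fits, and Esrra and Pnpla2 in 5. The median log2 fold change of the members stayed between -0.60 and -0.34.

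Around the members, 80 further genes of lipid handling were listed and 76 had enough counts to test in this comparison. Of these 76, log2 fold changes lay below 0 for 59, with a median of -0.18 beside 0.0064 over all genes. In 27 every WT IR library was below every WT sham library and in 9 every one was above, beside 19.3% and 20.5% of all genes. At an adjusted p under 0.05 (edgeR) 11 were lower in WT IR and 5 higher, beside 9.74% and 11.0% of all genes. The lower ones included Etfb (log2 fold change -0.62 ± 0.14 SE, adjusted p = 0.018) and Etfdh (log2 fold change -0.38, adjusted p = 0.0465), which pass electrons from the acyl-CoA dehydrogenases to the respiratory chain, Crat, the carnitine acetyltransferase (log2 fold change -0.57, adjusted p = 0.02), and Slc22a5, the carnitine importer (log2 fold change -0.38, adjusted p = 0.0365). G0s2, an inhibitor of ATGL, had the largest decrease of the list. It was at 10.97, 14.9 and 18.3 CPM in WT sham and at 6.72, 6.98 and 5.33 CPM in WT IR (log2 fold change -1.20 ± 0.18 SE, adjusted p = 0.00453), so the lipase and its inhibitor were both lower, whereas Abhd5, the activator of ATGL, was at 24.1, 23.3 and 23.4 CPM and 24.2, 23.8 and 24.7 CPM (log2 fold change 0.037, adjusted p = 0.727). Dbi, Acot7, Hsd17b4, Abcd3, Gpat3 and Agpat3 were also lower (log2 fold changes -0.37, -0.41, -0.22, -0.35, -0.52 and -0.56). The higher ones were Bdh1 (0.51), which interconverts ketone bodies, Acot9 (0.47), Acsl4 (0.35), Crot (0.27) and Acaca (0.36). None of the 16 further regulators passed. Gpihbp1, which anchors lipoprotein lipase to the capillary wall, and Angptl4, which inhibits that lipase, did not pass (log2 fold change 0.15, adjusted p = 0.403 and log2 fold change 1.06, adjusted p = 0.0675).

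The second comparison asks how the same genes stood in injured hearts labelled as overexpressing Zeb2 and in injured littermates. No member passed the test in either direction (edgeR quasi-likelihood test over 13018 genes), where 2.14% of all genes were higher and 1.51% lower. At an unadjusted p under 0.05 there were 10 higher and 4 lower members, beside 14.0% and 10.1% of all genes, and DESeq2 called 6 higher and 3 lower, beside 4.72% and 2.92%. The members' median log2 fold change was 0.11, from -0.54 (Lpl) to 1.15 (Esrra), beside 0.0059 over all genes. In 3 members, Cpt1b, Ppara and Dgat1, every cTg-labelled library was above every Zeb2 WT IR library, which held for 13.4% of all genes. In 4 members, Lpl, Cd36, Hadhb and Esrrg, every such library was below, which held for 12.8%.

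The 2 uptake genes among those 4 are also expressed outside cardiomyocytes. With the littermates given before the cTg-labelled libraries throughout, Cd36 was at 864, 1074 and 1105 CPM in Zeb2 WT IR and at 773, 756 and 670.0 CPM in the cTg-labelled libraries (log2 fold change -0.47 ± 0.14 SE, adjusted p = 0.0911). Lpl, named for its non-overlap, was at 1629, 2160.0 and 1459 CPM and 1221, 1132 and 1254 CPM (log2 fold change -0.54 ± 0.16 SE, adjusted p = 0.093). Hadhb, the beta subunit of the trifunctional protein, was at 356, 443 and 428 CPM and 304, 303 and 267 CPM (log2 fold change -0.49 ± 0.13 SE, adjusted p = 0.0684), and Esrrg had a log2 fold change of -0.31. Scaled on the cardiomyocyte markers, which moved the median of all genes to -0.15, these 4 members passed as lower, beside 4.51% of all genes, and the members' median was -0.049. Tnnt2 and Mybpc3 of those 22 markers were higher in the cTg-labelled libraries. All 22 markers summed to 69494, 74619.6 and 68853 CPM in Zeb2 WT IR and 81766, 79077 and 76882 CPM in the other group. Ttn held 55.9% to 64.1% of that sum. Fibroblast markers, of which Col1a2, Col3a1 and Lum were lower, summed to 1330.2, 959 and 2166 and 564, 609 and 696 CPM, and the 10 macrophage markers, none of which passed, to 206, 188 and 256 and 192, 220.4 and 205 CPM. The part of cell composition in the member values was not tested.

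The largest fold changes upward were carried by 2 of the 3 cTg-labelled libraries. Esrra was at 9.76, 5.63 and 7.296 CPM in Zeb2 WT IR and at 20.9, 8.28 and 21.1 CPM in the cTg-labelled ones (log2 fold change 1.15 ± 0.34 SE, adjusted p = 0.0871). Acads was at 20.8, 13.3 and 17.4 CPM and 48.1, 19.4 and 43.9 CPM (log2 fold change 1.11 ± 0.31 SE, adjusted p = 0.0753). Ppard was at 1.76, 0.890 and 0.89955 CPM and 2.81, 1.15 and 3.26 CPM (log2 fold change 1.03 ± 0.41 SE, adjusted p = 0.174). In all 3 genes replicates 1 and 3 were above every littermate and replicate 2 lay within the littermate range. The same held for Slc27a1, at 18.6, 12.99 and 13.3 CPM and 37.5, 14.4 and 35.9 CPM (log2 fold change 0.97 ± 0.32 SE, adjusted p = 0.114), and for Pnpla2, at 24.4, 16.7 and 18.1 CPM and 39.5, 18.7 and 45.6 CPM (log2 fold change 0.81 ± 0.29 SE, adjusted p = 0.137). Plin5, at 15.1, 11.9 and 17.1 CPM and 32.4, 15.5 and 28.1 CPM (log2 fold change 0.78 ± 0.25 SE, adjusted p = 0.108), had the same order. Without that replicate 14 members were higher and 1 lower, beside 12.0% and 6.20% of all genes, with 2419 calls over all genes in place of 474.

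Acaa2 was at 170.0, 161 and 178 CPM in Zeb2 WT IR and 338, 154 and 230.0 CPM in the cTg-labelled libraries (log2 fold change 0.50 ± 0.24 SE, adjusted p = 0.233). Acadvl was at 279.7, 249.9 and 263 CPM and 399.9, 245 and 344 CPM (log2 fold change 0.32 ± 0.17 SE, adjusted p = 0.291), Acacb at 111, 69.1 and 82.6 CPM and 128, 67.5 and 133 CPM (log2 fold change 0.32 ± 0.26 SE, adjusted p = 0.469). In these enzymes too replicates 1 and 3 of the cTg-labelled group lay above every littermate and replicate 2 below all of them. Cpt1a was at 27.9, 23.5 and 35.7 CPM and 34.5, 22.7 and 30.6 CPM (log2 fold change 0.011 ± 0.19 SE, adjusted p = 0.98) and its groups overlapped. Cpt1b was at 2.97, 2.55 and 3.07 CPM and 4.74, 3.13 and 4.77 CPM (log2 fold change 0.56 ± 0.21 SE, adjusted p = 0.155). Cpt1a counts, not divided by length, were 9.38, 9.22 and 11.7 times the uncertain Cpt1b counts in Zeb2 WT IR and 7.28, 7.27 and 6.41 times in the cTg-labelled libraries. That ratio was lower in each of the latter, the opposite direction to the change from sham to IR in the first table.

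Ppara was at 19.7, 23.1 and 16.9 CPM in Zeb2 WT IR and 23.5, 23.6 and 24.9 CPM in the cTg-labelled libraries (log2 fold change 0.27 ± 0.14 SE, adjusted p = 0.264), and Ppargc1a at 44.4, 58.2 and 43.7 CPM and 55.03, 74.9 and 55.2 CPM (log2 fold change 0.34 ± 0.17 SE, adjusted p = 0.248). Here replicate 2 was not low, and for Ppargc1a it was the highest of all 6. Acot2 was at 11.9, 11.9 and 14.9 CPM and 17.8, 13.5 and 15.3 CPM (log2 fold change 0.26 ± 0.15 SE, adjusted p = 0.319), Acot1 at 0.954, 1.46 and 1.67 CPM and 2.18, 0.496 and 0.842 CPM (log2 fold change -0.24 ± 0.48 SE, adjusted p = 0.786), and Ucp3 at 7.78, 4.94 and 14.6 CPM and 11.9, 2.901 and 9.72 CPM (log2 fold change -0.16 ± 0.49 SE, adjusted p = 0.865). The groups of all 3 overlapped. Fabp3 was at 261, 260.3 and 295 CPM and 296, 203 and 273 CPM (log2 fold change -0.081, adjusted p = 0.775), Hadha at 431, 425 and 438 CPM and 483, 326 and 409.8 CPM (log2 fold change -0.086, adjusted p = 0.756), Acadm at 312, 355 and 306 CPM and 372, 303 and 339 CPM (log2 fold change 0.06, adjusted p = 0.803), and Plin2 at 15.8, 12.6 and 17.3 CPM and 14.8, 11.7 and 14.7 CPM (log2 fold change -0.15, adjusted p = 0.577). The groups of these genes overlapped too. Slc25a20, Cpt2, Hadh, Eci1, Mlycd, Esrrb and Dgat2 also overlapped, with log2 fold changes from -0.15 to 0.22.

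Fold changes in this comparison followed the base composition of the transcripts. Across the 41 members Spearman's rho between log2 fold change and GC content (taken from each gene's longest transcript) was 0.673, and across all genes tested it was 0.552. The genes share the same 6 libraries, so this is a description. In the comparison of WT IR with WT sham the values were -0.367 and -0.292. After a correction of each library for GC content Ppargc1a alone passed in the second comparison, beside 3.66% of all genes higher (log2 fold change 0.54, adjusted p = 0.0213), while Esrra stood at 1.11 (adjusted p = 0.0746) and Acads at 0.59 (adjusted p = 0.0559).

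Of the 80 further genes of lipid handling 76 were tested in this comparison, 2 were higher and 4 lower, beside 2.14% and 1.51% of all genes. Acad12, an acyl-CoA dehydrogenase family member, was at 12.6, 6.64 and 11.2 CPM in Zeb2 WT IR and 24.5, 16.5 and 22.4 CPM in the cTg-labelled libraries (log2 fold change 1.06 ± 0.24 SE, adjusted p = 0.0445). Fasn, the fatty acid synthase, was at 9.76, 6.43 and 7.06 CPM and 15.3, 10.95 and 17.2 CPM (log2 fold change 0.91 ± 0.21 SE, adjusted p = 0.04996). Both were higher without overlap. Vldlr, a receptor for triglyceride-rich lipoproteins, was at 262, 307 and 294 CPM and 167, 163 and 124 CPM (log2 fold change -0.93 ± 0.15 SE, adjusted p = 0.0131). Plin3, another droplet coat, was at 31.4, 28.8 and 29.9 CPM and 18.3, 15.9 and 20.1 CPM (log2 fold change -0.73 ± 0.13 SE, adjusted p = 0.0195). The 2 remaining lower genes serve ketone use. Oxct1, which activates ketone bodies for oxidation, was at 575, 719 and 599 CPM and 364, 458 and 366 CPM (log2 fold change -0.67 ± 0.15 SE, adjusted p = 0.0399). Bdh1 was at 31.9, 35.7 and 31.02 CPM and 11.1, 14.05 and 23.1 CPM (log2 fold change -1.02 ± 0.24 SE, adjusted p = 0.0484).

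Set side by side, the 2 comparisons share no library. Of the 38 members with a log2 fold change below 0 in WT IR against WT sham, 24 (63.2%) were above 0 in the cTg-labelled libraries against Zeb2 WT IR. Of the 6299 genes below 0 in the first comparison and tested in both, 64.4% were, so in this the members were near all genes.

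The subunits of the trifunctional protein differed between the tables in a way that scaling cannot alter. Hadha and Hadhb lie head to head on chromosome 5 (GRCm38, Hadha at chr5:30118304-30155162 on the minus strand and Hadhb at chr5:30155248-30184593 on the plus strand). Counted within a library, Hadhb over Hadha was 0.169, 0.157 and 0.162 in WT sham and 0.170, 0.195 and 0.198 in WT IR. It was 0.827, 1.04 and 0.979 in Zeb2 WT IR and 0.629, 0.930 and 0.651 in the cTg-labelled libraries. WT IR and Zeb2 WT IR, both wild-type hearts 14 days after the same injury, thus did not overlap. Other ratios did not overlap between these groups either, but lay closer together. Cpt1a over Cpt1b ran from 5.69 to 9.21 in WT IR and from 9.22 to 11.7 in Zeb2 WT IR, so the groups nearly touched. Acaca over Acacb ran from 0.031 to 0.0492 and from 0.0751 to 0.118, and Esrra over Trmt112 from 14.8 to 22.9 and from 4.48 to 10.4. Trmt112 had only 21 to 46 counts in these libraries. Table and group cannot be told apart for these ratios. A difference between the tables in annotation or counting was not tested, so the levels of these genes should be read within a table only. No other ratio or level was compared between tables.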

How the data were processed

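Poly(A)-selected or total RNA (the labels name TruSeq stranded mRNA, the methods a total RNA kit) was sequenced by the authors, aligned to mm10 with STAR 2.4.2a and counted with HTSeq 0.6.1 per the submitters' processing notes. The authors deposited raw read counts per Ensembl gene in 2 tables of 6 libraries. Symbols came from GENCODE M21 on the same build (36429 of 38293 identifiers matched). Each table was analysed alone: genes were filtered (filterByExpr, minimum count 10, minimum total 15), scaled by TMM and tested with the edgeR 4.0.16 quasi-likelihood test without covariates (R 4.3.3), with Benjamini-Hochberg adjustment over all genes and a threshold of 0.05. Alternatives were DESeq2 1.42.0, other scalings, other filters, a GC correction (loess, span 0.5), a replicate block and leaving out each library. The main fit was also run on simulated counts with the same dispersion for every gene and as many genes raised as lowered. Such counts cannot test how it handles the differences between libraries seen here.

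Per-library values were given for the 20 members with the smallest p among those passing in either comparison, and for Cd36, Fabp3, Cpt1a, Cpt1b, Hadha, Acadm, Ppara, Ppargc1a, Esrra, Plin2, Acot1, Acot2 and Ucp3. In the second comparison Slc25a20, Cpt2, Hadh, Eci1, Mlycd, Esrrb and Dgat2 were given only as a range of log2 fold changes. Pathway genes outside the members were named where they passed or where Acaca, Abhd5, G0s2, Gpihbp1 or Angptl4. The members, gene lists and markers (cardiomyocyte, fibroblast, macrophage, endothelial, adipocyte, brown adipocyte, skeletal muscle) were chosen with earlier results of these data known. The design text gives 3 animals per group. Mitochondrial-genome counts stayed in the library sizes. The value of 1 cardiomyocyte marker is not reported here.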

Additional observations from a re-analysis of the deposited data

How the results depend on the processing

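In WT IR against WT sham, RLE scaling, leaving out mitochondrial genes, either filter, DESeq2, the GC correction and the replicate block, alone or with the GC correction, gave 22 to 28 lower members and 1 higher. The GC correction turned the split of all calls from 53.1% to 42.7% higher (44.6% with the replicate block). Scaling on the summed cardiomyocyte markers gave 6 lower members with a median of -0.17, and scaling on the markers' median ratio, added after seeing the data because Ttn dominates the sum, gave 8 lower, 2 higher (Cpt1a and Plin2) and a median of -0.18, with 92.8% and 92.1% of all calls higher. Leaving out 1 library gave 2 to 33 lower and 0 to 1 higher members, medians of -0.60 to -0.34, and 421 to 4980 calls over all genes in place of 2859. Cpt1a, Acot1, Acot2, Acacb, Esrra, Pnpla2 and Plin5 passed in all 10 settings that kept every library. Over all members and settings, 502 results kept their side of the threshold, 123 lost and 31 gained a call, and none changed direction while called.

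In Zeb2 cTg IR against Zeb2 WT IR, 600 results kept their side and 56 gained a call. No filter gave 8 higher and 3 lower members (1553 calls over all genes in place of 474), DESeq2 6 and 3 (1027), the GC correction 1 and 0 (836). The marker sum gave 0 and 4 (759, of which 22.7% were higher in place of 58.6%, median of the members -0.049), and the marker median ratio 0 and 2 (29.4% higher, median -0.080). Leaving out 1 library gave 0 to 14 higher and 0 to 1 lower members, medians of -0.00023 to 0.23 and 98 to 2419 calls. The cause of the shifts in either comparison was not tested. The replicate block gave 10 higher and 2 lower members (1813 calls), and with the GC correction 2 and 0 (744). Deviations of same-numbered libraries from their group means correlated at 0.134, 0.260 and -0.0425 here and between -0.0343 and 0.0119 in the first table. So few values cannot settle whether the replicate numbers pair the samples. Low counts limit Acot1, Ppard and Cpt1b most.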

Other observations

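Zeb2 itself was higher in WT IR, at 49.02, 49.9 and 55.9 CPM in WT sham and 59.1, 80.8 and 74.6 CPM in WT IR (log2 fold change 0.47 ± 0.12 SE, adjusted p = 0.0219), without overlap of the groups. Among the brown adipocyte markers only Dio2, the deiodinase that activates thyroid hormone, passed, at 1.55, 1.07 and 1.05 CPM in WT sham and 6.75, 11.9 and 23.2 CPM in WT IR (log2 fold change 3.49 ± 0.46 SE, adjusted p = 0.00366), while Ucp1, Elovl3 and Zic1 were too low to test. Ckm, listed with skeletal muscle but also a heart gene, was lower in WT IR (log2 fold change -0.68 ± 0.14 SE, adjusted p = 0.0118). Of 10 endothelial markers Eng was lower (log2 fold change -0.38 ± 0.084 SE, adjusted p = 0.0153). The summed endothelial level was 497, 534 and 495 CPM in WT sham and 489, 498 and 426 CPM in WT IR, and 423, 365 and 420.0 CPM in Zeb2 WT IR and 378, 329 and 436 CPM in the cTg-labelled libraries. In that second comparison no endothelial, adipocyte, brown adipocyte or skeletal muscle marker passed (edgeR, with 2, 0, 1 and 0 of them at an unadjusted p under 0.05 upward and 3, 1, 1 and 1 downward).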
